A study of Rattus norvegicus with 6 samples.

Results

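The genes described here are 9 that were selected for high levels in the subfornical organ of the rat: Crygs, Kiss1, Fgf3, Vax1, Cbs, Ucma, Pdlim3, Svil and Rgs19. They were found by their gene symbol in the platform annotation and are 9 of 12167 genes with a single symbol and a value on every array. Cbs and Svil were each measured by 2 probes and the other 7 genes by 1, so 11 probes were examined. They were selected on their values on the subfornical organ array, so their height there is a description and was not tested. No threshold of that selection was given.

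The samples came from adult male Sprague-Dawley rats with no treatment or genetic change given in the labels. Gene expression was read on 6 arrays: 2 of the pineal gland and 1 apiece of the subfornical organ, the subcommissural organ, the ependyma lining the third ventricle and total brain. The structures were cut out with a laser, the subfornical organ, the subcommissural organ and the ependyma each being a pool of 2, and the ependyma was collected away from both organs. Total brain, a pool of normal brains, was the reference. Every sample started from 3 ng of RNA and passed through 2 rounds of amplification, per the labels. Levels are the deposited intensities, in arbitrary linear units. A level under 1.05, the median of all probe values, is called below background here, and a fold against such a level is written as a bound against 1.05. The spread between arrays could be judged only from the pineal gland pair, whose log2 difference had an SD over genes of 1.15 below background, 0.78 from there to the pooled 75th percentile and 0.52 above it. In captured tissue, fewer cells of a type and less RNA per cell cannot be told apart.

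The subfornical organ is a small neural structure that hangs from the fornix at the top of the third ventricle. Its capillaries lack the usual blood-brain barrier, and its neurons sense circulating signals such as angiotensin II and sodium and act on thirst and blood pressure. The 9 genes belong to no single pathway. They encode secreted factors (Kiss1, Fgf3, Ucma), a homeodomain transcription factor (Vax1), a signalling regulator (Rgs19), a metabolic enzyme (Cbs), a crystallin (Crygs) and cytoskeletal proteins (Pdlim3, Svil).

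On the array of the subfornical organ, each of the 9 genes was at its highest level. At 4-fold or more, 8 of the 9 genes exceeded the subcommissural organ, where 11.7% of all measured genes did so. The same 8 exceeded the ependyma, against 6.78% of all measured genes, and the pineal gland, against 12.3%. All 9 exceeded total brain, against 7.19% of all measured genes. Against each of the other tissues at once, 8 of 9 stood 4-fold higher, compared with 0.752% of all genes, which is 75 of 9969. Pdlim3 was the gene that did not. With levels under 1.05 raised to 1.05, the counts of the 9 genes were the same. These shares restate how the genes were selected, and nothing further is read from them.

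**Figure D1:**
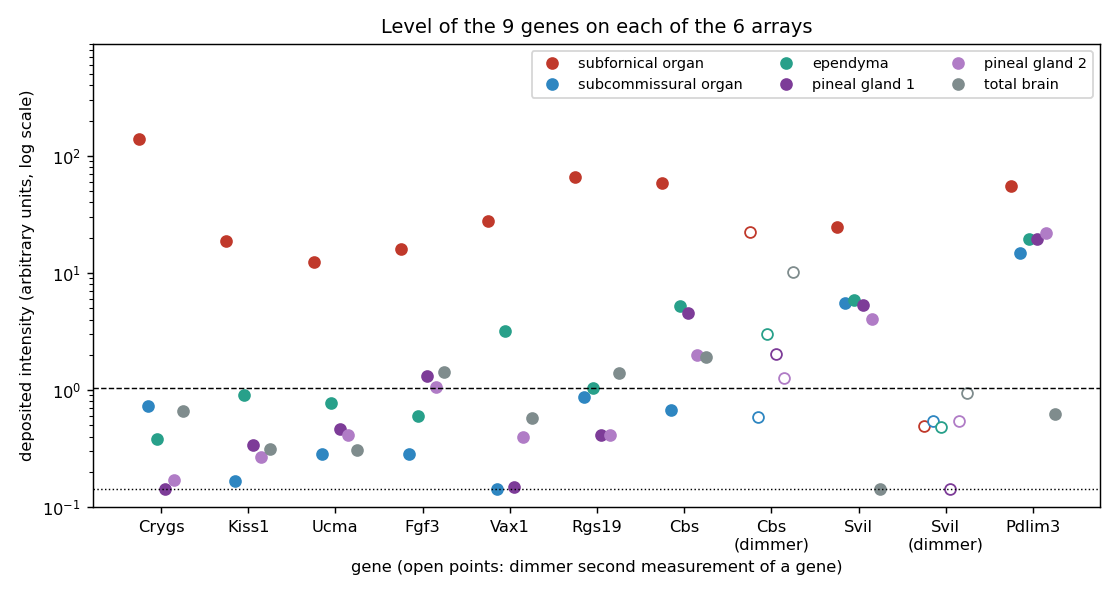
Deposited intensity (vertical axis, log scale, arbitrary units) of the 9 genes on the 6 arrays, 1 point per array. Open points are the dimmer second measurement of Cbs and Svil, the dashed line is the background value of 1.05 and the dotted line is the floor of 0.142. The subfornical organ point is the top one for every gene except the dimmer Svil measurement, in which all arrays lie below background.

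Crygs encodes gamma-S crystallin, a structural protein of the eye lens. Its level was 139 in the subfornical organ, 0.737 in the subcommissural organ, 0.386 in the ependyma, 0.139 and 0.171 in the pineal gland arrays and 0.661 in total brain. All arrays other than the subfornical organ were thus below background. The subfornical organ stood at least 132-fold above the highest of them, place 1 among 9969 measured genes by this measure. No order could be read among the other tissues, since each gap between neighbours was within 2 SD of the pineal gland pair's difference at that level.

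Kiss1 encodes the precursor of the kisspeptins, peptides that act on the receptor Kiss1r and are best known for driving the neurons that release gonadotropin-releasing hormone. Its level was 18.6 in the subfornical organ, 0.167 in the subcommissural organ, 0.916 in the ependyma, 0.337 and 0.266 in the pineal gland and 0.312 in total brain. Like Crygs, it was below background on every array but one. The subfornical organ was at least 17.7-fold above the ependyma, its nearest neighbour, place 3 among all measured genes.

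Ucma encodes a small secreted protein of cartilage that carries vitamin K dependent gamma-carboxylation. Its level was 12.5 in the subfornical organ, 0.284 in the subcommissural organ, 0.781 in the ependyma, 0.470 and 0.415 in the pineal gland and 0.308 in total brain. Again the subfornical organ array alone was above background. It was at least 11.9-fold above the ependyma. Ucma held place 4 by fold over the highest other array.

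Fgf3 encodes a secreted fibroblast growth factor that patterns the inner ear and the hindbrain and acts in the developing hypothalamus. Its level was 16.0 in the subfornical organ, 0.288 in the subcommissural organ, 0.603 in the ependyma, 1.32 and 1.06 in the pineal gland and 1.42 in total brain. The pineal gland and total brain values sat just above background and the remaining 2 tissues below it. The subfornical organ was 11.2-fold above total brain, the next highest array.

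Vax1 encodes ventral anterior homeobox 1, a transcription factor of the embryonic ventral forebrain and optic stalk. Its level was 27.9 in the subfornical organ, 0.100 in the subcommissural organ, 3.20 in the ependyma, 0.148 and 0.399 in the pineal gland and 0.580 in total brain. The ependyma was the other array above background, and it lay 8.71-fold below the subfornical organ. The ependyma was in turn at least 3.04-fold above total brain. Total brain, the pineal gland and the subcommissural organ, all below background, had no readable order.

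Rgs19 encodes a regulator of G protein signalling that speeds GTP hydrolysis by Gi-class alpha subunits and so shortens their signal. Its level was 65.9 in the subfornical organ, 0.875 in the subcommissural organ, 1.05 in the ependyma, 0.415 and 0.418 in the pineal gland and 1.40 in total brain. The subfornical organ was 47.1-fold above total brain, place 2 among all measured genes. The other arrays were close to or below background.

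Cbs encodes cystathionine beta-synthase, which condenses homocysteine and serine in the first step of transsulfuration and can also make hydrogen sulfide. Its brighter probe read 58.5 in the subfornical organ, 0.683 in the subcommissural organ, 5.25 in the ependyma, 4.53 and 1.99 in the pineal gland and 1.90 in total brain. The subfornical organ was 11.1-fold above the ependyma. Only the subcommissural organ fell below background, and it was at least 55.6-fold below the subfornical organ. The dimmer probe read 22.2, 0.593, 2.99, 2.03, 1.27 and 10.2 in the same order of arrays. Both probes put the subfornical organ highest and the subcommissural organ lowest, but they disagreed on total brain. By the dimmer probe total brain was second and only 2.18-fold below the subfornical organ, where the brighter probe gave 30.7-fold.

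Svil encodes supervillin, a large membrane-associated protein of the villin and gelsolin family that binds actin and myosin II. Its brighter probe read 24.5 in the subfornical organ, 5.55 in the subcommissural organ, 5.93 in the ependyma, 5.30 and 4.01 in the pineal gland and 0.038 in total brain. The ependyma, the subcommissural organ and the pineal gland were close together, and total brain was below background. The subfornical organ was 4.14-fold above the ependyma and at least 23.3-fold above total brain. The second Svil probe stayed below background on all 6 arrays, between 0.135 and 0.943. With the mean of both probes the log2 difference from the highest other array fell from 2.05 to 1.01, so that Svil was no longer 4-fold higher.

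Pdlim3 encodes a PDZ and LIM domain protein that binds alpha-actinin and is best known from the Z line of striated muscle. Its level was 55.8 in the subfornical organ, 14.9 in the subcommissural organ, 19.4 in the ependyma, 19.5 and 21.8 in the pineal gland and 0.623 in total brain. The subfornical organ was 2.56-fold above the higher pineal gland array, and total brain stood apart at the bottom. Pdlim3 ranked 202 among 9969 genes by this fold. Its subfornical organ level was at least 53.1-fold above total brain, so total brain rather than the subfornical organ was the array farthest from the rest.

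**Figure D2:**
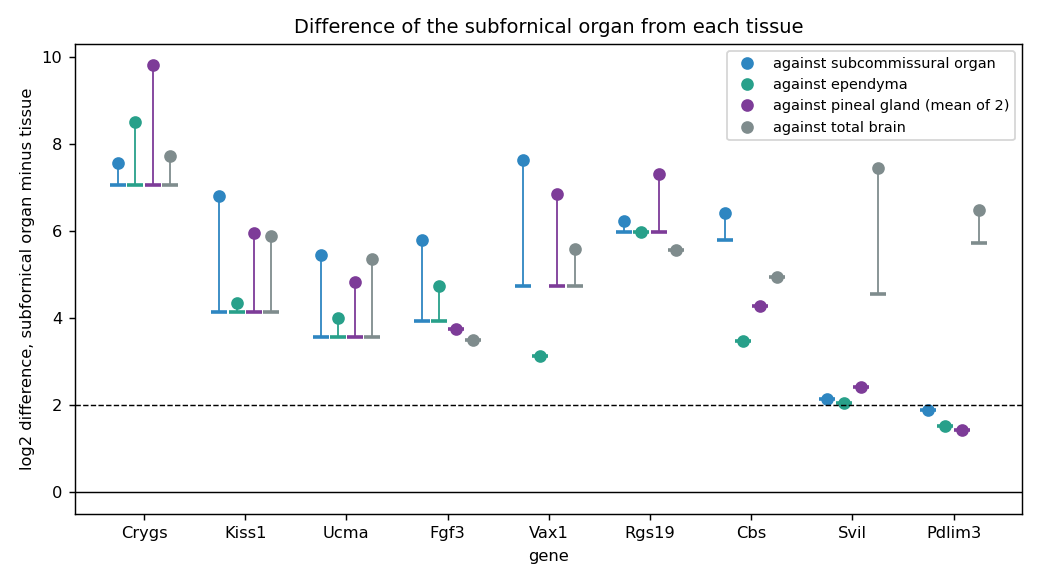
Log2 difference of the subfornical organ from each other tissue (vertical axis) for the 9 genes. Points are the values as deposited after the floor, horizontal ticks are the bound against a background of 1.05, and the dashed line is 4-fold, a log2 difference of 2. Pdlim3 lies under that line against 3 tissues, and the Svil points against the same 3 tissues sit just above it.

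The 9 genes therefore formed sets that differ in how many of the other 5 arrays were below background. For Crygs, Kiss1 and Ucma all 5 were, for Vax1 it was 4, for Rgs19 it was 3 and for Fgf3 it was 2. For Cbs, Svil and Pdlim3 a single array was, the subcommissural organ for Cbs and total brain for both Svil and Pdlim3. Over the 6 log2 levels, the Euclidean distance between Kiss1 and Ucma was 1.26, the smallest among the 9 genes, and the distance between Crygs and Pdlim3 was 12.3, the largest. A distance of this kind includes how bright a probe is as well as the shape of the profile, and the 6 arrays are shared by every pair. It also includes differences between levels below background, as on 5 arrays for Kiss1 and Ucma, where the spread was largest. The same limit holds for the nearest profiles given next.

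Among all measured genes, the profile nearest to Ucma was that of Myo7b at 1.10, followed by Kiss1 and Dmrtc1c1. For Kiss1 the nearest were Ucma, Pbk at 1.86 and Myo7b at 1.90. Crygs lay nearest to Rgs19 at 2.92, and then to Kiss1 and Pbk. The gene nearest to Rgs19 was Chaf1b at 2.68, with Crygs and Atp7b next. Vax1 had Kiss1 at 2.49, En2 at 2.51 and Pbk at 2.58 as neighbours. Fgf3 had Fxyd2 at 1.49, Hspa12b and Rasgrp4. Cbs had Entrep1 at 2.08, Bst2 and Tpcn1. Svil had Ttc23 at 1.19, Stard6 and Inka1. Pdlim3 had Cox16 at 2.24, C8g and Ip6k2, none of which was highest in the subfornical organ.

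The bases just before the transcription start are shown for 4 genes with low or no signal elsewhere, to set the start regions of genes with like profiles side by side. The sequences are RefSeq's, on build GRCr8, each covering 100 bases that end at the base before the annotated start, written 5′ to 3′ on the gene's strand. Capitals mark motifs that were searched for. Crygs is chr11:91711655-91711754 on the plus strand, Kiss1 is chr13:47327059-47327158 on the plus strand, Ucma is chr17:78212997-78213096 on the minus strand and Vax1 is chr1:268316266-268316365 on the minus strand.
Crygs: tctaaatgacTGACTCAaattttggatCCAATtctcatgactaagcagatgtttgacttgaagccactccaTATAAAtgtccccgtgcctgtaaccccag
Kiss1: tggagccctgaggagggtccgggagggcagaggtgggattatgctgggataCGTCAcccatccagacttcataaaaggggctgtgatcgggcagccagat
Ucma: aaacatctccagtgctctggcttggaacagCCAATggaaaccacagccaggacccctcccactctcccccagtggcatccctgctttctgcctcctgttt
Vax1: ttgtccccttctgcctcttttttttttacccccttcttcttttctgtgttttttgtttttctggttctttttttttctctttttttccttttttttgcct
The Crygs stretch holds the core of a TATA box, TATAAA, beginning at position -29, a CCAAT box at -73 and an AP-1 type site, TGANTCA, at -90, counted from the start base as 0. Ucma holds a CCAAT box at -70. Kiss1 holds the cAMP response core TGACG on the opposite strand, beginning at -49. The Vax1 stretch is rich in pyrimidines and holds none of the motifs searched.

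A promoter entry, 250 bases before to 50 after the start, was matched for 8 of the 9 genes and not for Pdlim3. Both strands were searched, and overlapping matches were counted. Of all 27457 promoters, 14.3% held TATAAA, and 2 of the 8 did (Crygs, Svil). CCAAT was held by 37.7% of all promoters and by 4 of the 8 (Crygs, Ucma, Cbs, Svil). TGANTCA was held by 7.33% of all promoters and by 2 of the 8 (Crygs, Ucma). The homeodomain core TAATTA was held by 5.35% of all promoters and by 0 of the 8. TGACG was in 22.0% of all promoters and in 2 of the 8 (Kiss1, Svil), where in Svil it overlapped a CAGCTG E-box. That E-box was in 15.1% of all promoters and in the same 2 of the 8. The other E-box searched, CACGTG, was in 6.65% of all promoters and in 1 of the 8 (Rgs19). A GC box, GGGCGG, was in 34.9% of all promoters and in 1 of the 8, Cbs, which held 3 copies and whose promoter was 69.7% GC against a median of 52.3%. No motif was shared by all 8 promoters. A match says only that the letters are present.

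Between tissues other than the subfornical organ, the pair of pineal gland arrays allowed a test with limma. Whether levels in these tissues entered the choice of the genes is not given, so the comparisons below may not be free of that choice. The pineal gland was compared with total brain, the ependyma and the subcommissural organ, and these comparisons share the pineal gland arrays. The single array of each other tissue was taken to vary as the pineal gland pair did. The standard error was the same for every gene in a comparison, between 0.71 and 0.72 on the log2 scale, so a call amounted to a difference of about 1.82 to 1.85 or more. The spread was thus pooled over all genes, although the SD of the pineal gland pair was largest below background. The very small p-values rest on that pooling. The fit used the floored levels, and in each of the 5 calls below the lower side was below background, so the fitted difference rests on a level that was not measured and a bound against 1.05 stands beside it.

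In the pineal gland against total brain, 2 of the 5 genes that could be tested were called, against 23.8% of all genes tested. Pdlim3 was higher in the pineal gland by at least 4.30 on the log2 scale, 19.6-fold. The fitted difference was 5.05 ± 0.72 (log2, SE), with a limma adjusted p of 1.21e-10, and up to 0.0868 over 5 alternative settings. Svil was higher by at least 2.13 on the log2 scale, 4.39-fold. Its fitted difference of 5.02 ± 0.72, with a limma adjusted p of 1.55e-10 and up to 0.0924 over 4 alternative settings, was set by the floor and became 3.37 with the floor at the pooled 25th percentile. Both bounds exceed the size a call needed. Both pineal gland arrays were above total brain for both genes. The highest adjusted p-values came from that higher floor, under which limma called 0 genes in all (2485 had an unadjusted p under 0.05). The Svil call also ended with the mean of both probes (adjusted p = 0.0730). Rgs19 was at -1.75 ± 0.72 (adjusted p = 0.0623), Cbs at 0.66 ± 0.72 (adjusted p = 0.591) and Fgf3 at -0.27 ± 0.72 (adjusted p = 0.849), none past the threshold. With the mean of both probes the Cbs difference was -1.01, also not called. Crygs, Kiss1, Ucma and Vax1 were below background on both sides and were not tested.

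In the pineal gland against the ependyma, 1 of the 6 genes that could be tested was called, against 20.2% of all genes tested. Vax1 was lower on both pineal gland arrays, which were below background, than in the ependyma. The fitted log2 difference was -3.72 ± 0.72 (SE), with a limma adjusted p of 4.36e-06, but the bound was -1.61, which does not reach the size of a call. Its adjusted p reached 0.0515 after quantile normalization and 0.106 with the higher floor, both past the threshold of 0.05. Pdlim3 and Svil, at 0.09 and -0.36, were not called, with limma adjusted p of 0.968 and 0.838. The values of Rgs19, Fgf3 and Cbs were -1.34, 0.97 and -0.81, also not called.

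In the pineal gland against the subcommissural organ, 2 of the 4 genes that could be tested were called, against 20.8% of all genes tested. Cbs had a fitted difference of 2.14 ± 0.71 (log2, SE; limma adjusted p = 0.0169) and Fgf3 of 2.04 ± 0.71 (adjusted p = 0.0244), each higher on both pineal gland arrays. Against the background value the bounds were 1.51 for Cbs and 0.17 for Fgf3, neither of which reaches the size of a call. Over the alternative settings the adjusted p ranged from 0.0493 to 0.208 for Cbs and from 0.0196 to 0.187 for Fgf3. Quantile normalization ended the Cbs call (0.0782), and the higher floor and the fit without a filter ended both. Pdlim3 and Svil, at 0.46 and -0.27, were not called.

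Relatives of the 9 genes were described through 9 lists, 1 for each gene, in the subfornical organ set against the ependyma and total brain, where a single array a tissue allowed no test. Counts of 4-fold differences in these lists take levels under 1.05 as 1.05, while medians use the floored levels. Of 95 measured relatives, 9 were at least 4-fold higher and 7 at least 4-fold lower than in the ependyma, with a median log2 difference of 0.38. Over all measured genes, 4.32% were higher and 4.21% lower, with a median of 0.13. Against total brain 10 of 97 relatives were higher and 8 lower, with a median of -0.06, beside 4.23% higher, 7.13% lower and a median of -0.20 over all genes. On the floored levels 14 were higher and 9 lower than in the ependyma, and 15 and 11 in the comparison with total brain, beside the 6.78% and 7.19% of all genes given above for higher levels. Quantile normalization moved the median of all genes against total brain to 0.06, so medians near 0 in that comparison have no firm sign.

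**Figure D3:**
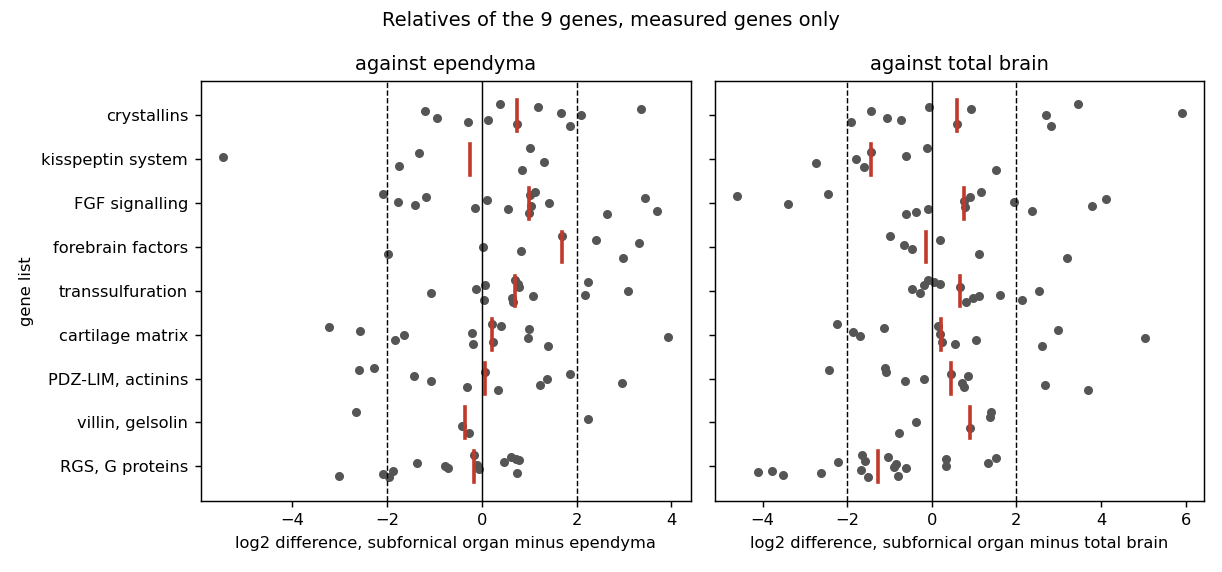
Log2 difference of the subfornical organ from the ependyma (left) and from total brain (right) for the measured genes of the 9 lists of relatives, on the floored levels. Each point is a gene, red bars are list medians and dashed lines mark 4-fold. The forebrain factors have the highest median against the ependyma, 1.70, and the kisspeptin system the lowest against total brain, -1.44.

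Among the crystallins and lens proteins, 2 of 11 measured genes were 4-fold higher than in the ependyma and 3 of 11 than in total brain, and none was lower. The median differences were 0.74 and 0.61. Cryab, a small heat shock crystallin also made by glia, read 31.1 in the subfornical organ, 3.02 in the ependyma and 16.4 in total brain. Crybb1, a beta crystallin, read 13.1, 3.06 and 2.03 on these arrays. Cryba4, another beta crystallin, read 11.4, 3.60 and 0.189. The lens water channel Mip read 4.71 in the subfornical organ and 0.668 in total brain, and the lens filament protein Bfsp1 was at least 2.86-fold above total brain, at 3.01. Bfsp1 was higher in the subcommissural organ, at 8.21, and in the pineal gland, at 16.9 and 5.38. Cryab was 10.3-fold above the ependyma and Cryba4 at least 10.9-fold above total brain, the highest folds in the list and far under that of Crygs.

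In the kisspeptin and reproductive peptide list, none of 6 measured genes was 4-fold higher than in the ependyma, and none of 7 was than in total brain. The medians were -0.24 and -1.44. The receptor Kiss1r was below background in the subfornical organ, at 0.782, and read 2.13 in total brain. Npvf, which encodes RFamide peptides that oppose kisspeptin, was lower by at least 17.1-fold than in the ependyma, at 0.406 against 17.9. Prlr, the prolactin receptor, was below background at 0.423 and read 2.80 in total brain. Kiss1 thus stood high on an array where its receptor had no level above background.

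Of the FGF ligands, receptors and feedback inhibitors, 2 of 15 were 4-fold higher and none lower than in the ependyma, and 2 of 14 were higher and 2 lower than in total brain. The medians were 0.997 and 0.77. Fgfr2, a receptor with an isoform that binds Fgf3, read 11.4 in the subfornical organ, 34.1 in the subcommissural organ, 5.53 in the ependyma and 0.823 in total brain. The feedback inhibitor Spry1 read 6.70, against 0.512 in the ependyma and 1.30 in total brain, and Spry4 read 8.81, against 1.41 and 13.4. The ligand Fgf22 read 4.19 and was below background in both, at least 3.99-fold lower. Fgf1, Fgf9 and the FGF-responsive transcription factor Etv5 were below background in the subfornical organ and at least 7.55-fold, 5.56-fold and 3.62-fold higher in total brain. Etv4, on the same list, went the other way, at 2.93 in the subfornical organ, 1.35 in the ependyma and 1.30 in total brain.

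Among transcription factors of the ventral forebrain and the eye field, 2 of 7 measured genes were 4-fold higher than in the ependyma and 1 of 6 than in total brain, and none was lower. Medians were 1.70 and -0.14, the second of which turned to 0.06 after quantile normalization. Six6, an eye field and hypothalamic factor, read 5.70 in the subfornical organ and was below background in both comparison tissues, at least 5.42-fold lower. Emx2 read 4.79 and Lhx9 3.70, each below background in the ependyma and at 4.20 and 5.84 in total brain. Six6 was the listed factor that, like Vax1, stood at least 4-fold above both. Otx2 was above both by less, at 42.2 in the subfornical organ, 23.7 in the ependyma and 19.4 in total brain.

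In the transsulfuration and methionine cycle list, none of 13 measured genes was shown to be 4-fold higher or lower than in the ependyma or in total brain, with medians of 0.70 and 0.66. The floored levels gave 3 and 2 higher genes, each against a level below background. Gnmt, which consumes S-adenosylmethionine, read 2.94 in the subfornical organ and was below background in both, at least 2.80-fold lower. In the subcommissural organ Gnmt was higher, at 7.17. Cdo1, which oxidises cysteine, read 4.11 and was at least 3.91-fold above the ependyma. Sqor, which oxidises hydrogen sulfide, read 1.82 and was at least 1.73-fold above total brain. Cth, the enzyme that follows Cbs in transsulfuration, was below background on all 6 arrays, so its level could not be compared. Mpst, another source of hydrogen sulfide, read 33.7 in the subfornical organ, 38.0 in the subcommissural organ and 17.1 in total brain.

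For cartilage matrix and vitamin K dependent proteins, 1 of 13 measured genes was 4-fold higher and 2 lower than in the ependyma, and 2 of 12 were higher and 1 lower than in total brain. The median was 0.21 in both. Matn4, a matrilin, read 11.7 in the subfornical organ and was below background in both comparison tissues, so that it was at least 11.1-fold higher. Vkorc1, which recycles the vitamin K that gamma-carboxylation uses, read 32.6, against 5.37 in total brain. Ggcx, the carboxylase itself, read 6.26, against 5.47 in total brain. Acan, the core protein of aggrecan, was 4.75-fold lower than in total brain at 1.41, and Col11a1 and Gas6 were the genes lower than in the ependyma.

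Of the PDZ-LIM proteins and alpha-actinins, 1 of 11 was 4-fold higher and 1 lower than in the ependyma, and 2 of 11 were higher and none lower than in total brain, with medians of 0.08 and 0.45. Pdlim4 read 68.7 in the subfornical organ, 50.0 in the subcommissural organ and 10.8 in total brain. Pdlim7 read 9.75, 10.9 and 0.753 on these arrays, and so, like Pdlim3, was low in total brain. Pdlim2, at 4.34, was at least 4.13-fold higher than in the ependyma. The muscle actinin Actn2 was below background at 0.558, and Actn1 was 4.82-fold lower than in the ependyma.

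In the villin and gelsolin family, 1 of 4 measured genes was 4-fold higher and 1 lower than in the ependyma, and none of 5 passed 4-fold against total brain, with medians of -0.35 and 0.90. Capg, which caps actin filaments and is abundant in macrophages, read 30.4 in the subfornical organ and 4.75-fold less in the ependyma. Avil, advillin, read 1.25 and was 6.30-fold higher in the ependyma.

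For the RGS proteins and Gi-class subunits, none of 15 was 4-fold higher and 2 were lower than in the ependyma, and none of 18 was higher and 5 were lower than in total brain. Medians were -0.16 and -1.27. Rgs4 and Rgs7, both abundant in neurons, read 1.48 and 1.15 in the subfornical organ and were 13.7-fold and 11.4-fold higher in total brain. Rgs6, Rgs5 and the alpha subunit Gnaz were the others lower than in total brain. The alpha subunit Gnai2 read 55.9 in the subfornical organ and 19.5 in total brain. On the same arrays Gnai3 read 3.88 and 3.06, Gnai1 read 1.19 and 2.43, and Gnao1 read 14.0 and 41.8. No measured relative shared the 4-fold higher level of Rgs19.

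Cell type markers were read on the same arrays, since the captured tissue could hold several cell types. The summed level of 11 oligodendrocyte markers was 1645 in the subfornical organ and 1530 in total brain, against 73.1 to 298 on the other 4 arrays, and 10 of the 11 were above background in the subfornical organ. For 10 astrocyte markers the sum was 1134, against 93.8 to 923 elsewhere, with 9 above background. For 12 microglia and macrophage markers it was 774, against 97.8 to 534 elsewhere, with 9 above background. By these sums the subfornical organ array was the highest in 3 lists that hold no member of the 9. The counts above background did not set it apart. They were equal in total brain for oligodendrocytes (10), in the ependyma for astrocytes (9), and in total brain and both pineal gland arrays for microglia and macrophages (9). The part of these cell types in the levels of the 9 genes was not tested.

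The sum of 9 motile cilia markers was 732 in the subfornical organ, against 2593 in the subcommissural organ and 2798 in the ependyma, and that of 10 neuron markers was 88.3, against 963 in total brain. The sum of 12 choroid plexus markers was the lowest there, at 110 against 205 to 540 elsewhere. Calml4 and Otx2 weighed most in it, at 44.8 and 42.2, against 319 and 124 in the subcommissural organ. Ttr read 4.17 in the subfornical organ, 1.61 in the subcommissural organ and 116 in total brain. The median of this list was below background in the subfornical organ (0.724), the ependyma (0.764) and the subcommissural organ (0.964). For 8 hypothalamic peptides the sum was 90.2 in the subfornical organ, against 579 in the ependyma. Tanycyte markers (7) summed to 228, between 108 in the pineal gland and 417 in the subcommissural organ. Most of this was Vim, at 198 in the subfornical organ and 377 in the subcommissural organ. By the median of the list the subfornical organ was highest, at 4.53 against 1.36 to 3.05 elsewhere. Endothelial markers (9) summed to 152, below total brain at 283. Mural and fibroblast markers (11) summed to 239, against 247 and 192 in the pineal gland arrays, 218 in total brain, 75.6 in the subcommissural organ and 52.2 in the ependyma. Pdlim3 and Svil are also muscle genes, and the 10 striated muscle markers summed to 9.48 in the subfornical organ, 34.6 in the ependyma and 45.9 in total brain. Of these 10 muscle markers, 8 were below background in the subfornical organ. Ckm, Myh1, Myh4, Mb and Myl1 were below background on every array, so their levels could not be compared. Myh2, Tnni2 and Actn2 were above background in the ependyma, at 15.1, 3.84 and 3.38. Acta1 and Tnnt3 were above background in the subfornical organ, at 1.12 and 3.41. They read 4.54 and 5.12 in the ependyma and 14.1 and 2.87 in total brain. The part of muscle in the levels of Pdlim3 and Svil was not tested.

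**Figure D4:**
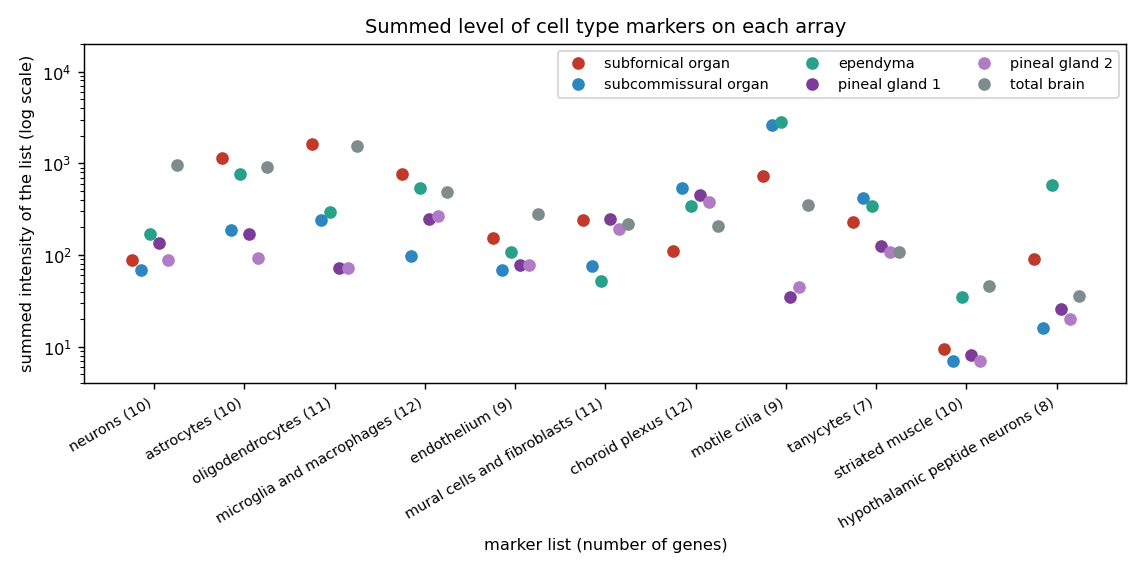
Summed intensity of the markers of each cell type (vertical axis, log scale) on the 6 arrays, with the number of genes in a list in parentheses. The subfornical organ is the top point for astrocytes, oligodendrocytes and microglia and the lowest for choroid plexus.

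The label of the tissue was checked with 14 receptors and sensors named for the subfornical organ in the literature. Of these, 6 were above background and 8 below it on its array. As many were above background in the subcommissural organ, the ependyma and one pineal gland array, and 8 were in total brain and the other pineal gland array. The sodium channel Scn7a read 3.41 in the subfornical organ, 18.0 and 9.42 in the pineal gland and was below background elsewhere. The angiotensin receptor Agtr1a read 1.96 in the subfornical organ, 4.95 and 2.66 in the pineal gland, 5.33 in total brain and was below background elsewhere. The median log2 difference of the list was 0.22 against the ependyma and -0.47 against total brain. This list therefore did not set the subfornical organ array apart from the others.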

How the data were processed

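The authors deposited an intensity for each probe on each array; the values show a linear scale. Their scanner, background correction and scaling are not given in the sources used here, and the limit of detection is unknown. Array medians lay between 1.04 and 1.07, and -9999 was read as missing. Genes were named through the platform annotation. A floor of 0.142, the 5th percentile over all arrays, was set before log2, and folds used the floored values. The brightest probe stood for a gene. A gene counted as measured where the higher tissue was at or above 1.05.

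The 9 genes and all gene lists were chosen with earlier results of these data known, as were the motifs with the sequences in view. Genes were named by rule: every one of the 9, relatives at least 4-fold different and other close relatives, and the 3 nearest profiles. The subfornical organ has 1 array, so its differences have no replicate check. Pineal gland comparisons used limma 3.58.1 (R 4.3.3, lmFit and eBayes, all 6 arrays). Differences in either direction were tested, and a call needed p below 0.05 after Benjamini-Hochberg adjustment. The code was also run on simulated data, but no result of that run is given, so it lends the calls no support. The 2 pineal gland arrays gave the limma fit its 1 residual degree of freedom. The labels do not say that these arrays are separate animals, so p-values measure only their spread, which may be technical. Differences of 4-fold between those 2 arrays occurred in 2.86% of 8555 measured genes. The number of arrays limits the precision. Alternatives changed the scaling, the floor, the probe rule and the filter, and left out each pineal gland array.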

Additional observations from a re-analysis of the deposited data

How the results depend on the processing

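The count of genes 4-fold above each other tissue was 8 of 9, and 7 after quantile normalization (Svil, log2 difference 1.95) or with the mean over probes (Svil, 1.01); it was 8 under the other alternatives run, including without either pineal gland array. No result reversed. For the pineal gland against total brain, limma called 2 of the 9 genes, 1 with the mean over probes, 1 with a filter at the pooled 75th percentile and 0 with a floor at the 25th. Against the ependyma it called 1, and 0 under quantile normalization, the 75th percentile filter and the higher floor. Against the subcommissural organ it called 2, 1 under quantile normalization, and 0 with that filter, that floor or no filter. Under the 75th percentile filter Pdlim3 alone of the 9 genes was tested. The others were removed before the test, so their calls were not tested there. The higher floor left 0 genes called of all tested in each comparison (2485, 2127 and 2155 at an unadjusted p under 0.05), and there the standard error differed between genes. Over all genes the calls in the comparisons with total brain, the ependyma and the subcommissural organ were 2160, 1810 and 1838, and 1214, 1115 and 1321 after quantile normalization or 991, 724 and 725 with no filter. In those alternatives too the standard error differed between genes. Against total brain it ran from 0.416 to 2.65 after quantile normalization and from 0.622 to 2.22 with no filter. The 75th percentile filter tested fewer genes and gave 6 relatives 4-fold higher than in the ependyma and 8 than in total brain, where the floored levels gave 14 and 15. With levels under 1.05 taken as 1.05, an alternative chosen after seeing the data, the counts were 9 and 10.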
